A study of Mus musculus with 11 samples.

Results

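The genes described here encode the voltage-gated, calcium-activated and sodium-activated potassium channels of the nucleus accumbens, with the auxiliary proteins that bind them. They were chosen by symbol: every probe set with a single annotated gene symbol that began with Kcna, Kcnb, Kcnc, Kcne, Kcnf, Kcng, Kcnh, Kcnm, Kcnn, Kcnq, Kcns, Kcnt or Kcnv, with the brightest probe set standing for a gene. The choice gave 53 of 19938 genes. The measurements came from 11 Affymetrix Mouse Gene 1.0 ST arrays, each with RNA from a separate behaviourally untested male mouse aged 4 to 5 months. The groups were 6 wild-type (WT) mice and 5 littermates labelled RARβ-null mutant, which lack the retinoic acid receptor gene Rarb. Both groups came from heterozygous crosses on a mixed background of C57BL/6J and 129SvEms/j. The tissue was nucleus accumbens enriched in its shell, taken with a 0.5 mm punch, so each array read RNA of all cells in the punch.

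Potassium channels let potassium leave the neuron, which restores the resting potential after a spike and sets how readily the next spike is fired. A pore is built from pore-forming subunits with the same overall plan. The families differ in what opens them: membrane voltage for Kcna, Kcnb, Kcnc, Kcnh and Kcnq, internal calcium for Kcnn and Kcnma1, and internal sodium for Kcnt. Subunits of the Kcnf, Kcng, Kcns and Kcnv families form no working channel alone and are called electrically silent; they join Kcnb subunits and alter their gating. Striatal projection neurons, the GABAergic output cells of the accumbens, are known for a hyperpolarised resting potential and a delayed first spike, both of which depend on potassium currents.

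Values are log2 expression after robust multi-array analysis (RMA), so levels of different probe sets are not compared with each other. A difference is the Rarb-null mean less the WT mean. Differences are given with the standard error (SE) or the 95% confidence interval of the limma fit, and a gene is said to have risen or fallen where the Benjamini-Hochberg adjusted p of that fit over all genes tested was under 0.05. Group levels are mean ± SD over the 6 WT or the 5 Rarb-null arrays. In bulk tissue, fewer cells of a type and less RNA per cell cannot be told apart.

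Rarb itself read 11.75 ± 0.04 (SD, n = 6) in WT against 9.89 ± 0.11 (SD, n = 5) without the receptor (limma, -1.86, SE 0.047, adjusted p = 4.44e-11), with no overlap between the arrays. The group sizes in the extraction protocol are the reverse of those in the sample titles, and the Rarb level followed the titles on all 11 arrays. Which part of Rarb the probe set reads was not checked. The median of an array over all probe sets was 7.02 to 7.06 among WT and 7.08 to 7.11 among Rarb-null, a small difference of scale. Over the genes tested the median tended the other way, at 8.963 to 8.998 among WT and 8.881 to 8.973 among Rarb-null. Scale therefore touches the genes tested as well as the dim genes below. The balance of rises and falls changed when arrays were centred on that second median, as given below. Depth does not apply to arrays; their number limits the precision.

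Of the 53 genes, 39 had a mean over all arrays above the 40th percentile of genes (log2 6.99) and were tested. Among them 8 fell and 3 rose in Rarb-null arrays, while 28 did not pass. These 11 are 28.2% of the 39, where 19.6% of all 11963 genes tested passed, 12% lower and 7.56% higher. With each array centred on its median over the genes tested, 14% of all genes were higher and 7.85% lower. In that fit 6 potassium channel genes were higher and 7 lower. WT and Rarb-null arrays were fully separate for 7 of the 39 genes (17.9%), against 11.2% of all genes tested. The median difference was -0.030 over the 39 genes and -0.017 over all genes tested. The genes that fell were Kcng3, Kcnh1, Kcnh2, Kcna4, Kcng1, Kcnab1, Kcna1 and Kcnc1, and those that rose were Kcns1, Kcnmb3 and Kcna3. The differences were modest in size, the largest fall being 1.5-fold and the largest rise 1.54-fold, and both belonged to electrically silent subunits.

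**Figure D1:**
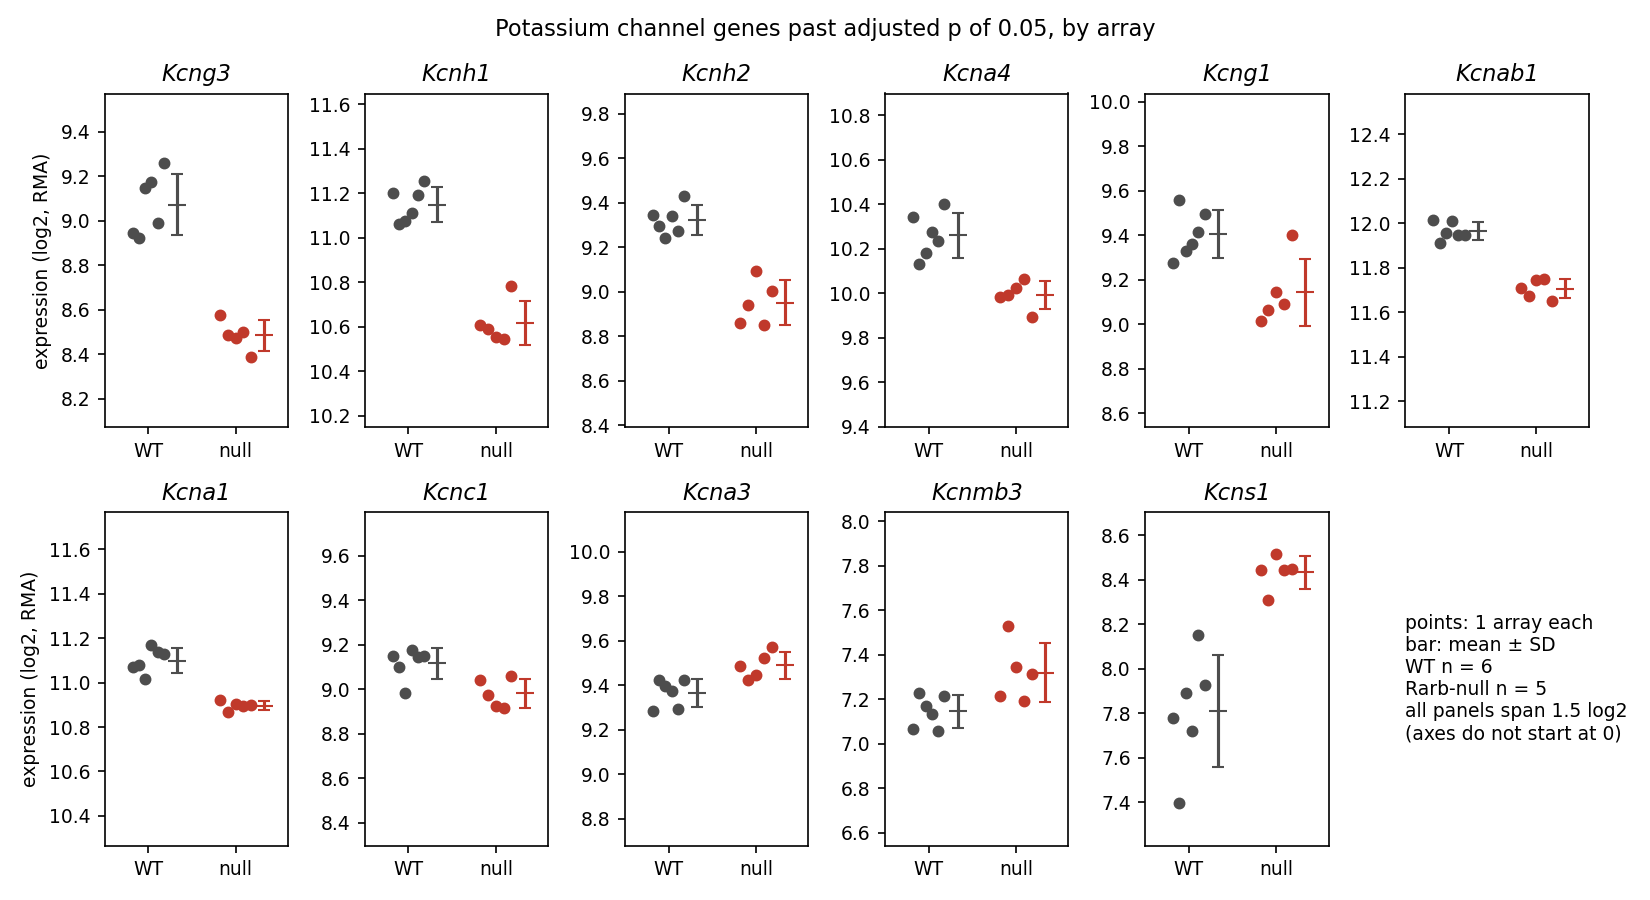
Expression (log2, RMA) of the 11 potassium channel genes past an adjusted p of 0.05, with 1 point per array for 6 WT (grey) and 5 Rarb-null (red) mice, and bars for mean ± SD. Each panel spans 1.5 log2 units and does not start at 0. The groups are separate for Kcng3, Kcnh1, Kcnh2, Kcna4, Kcnab1, Kcna1 and Kcns1, and share part of their range for Kcng1, Kcnc1, Kcna3 and Kcnmb3.

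The 4 genes with the largest differences were Kcns1, Kcng3, Kcnh1 and Kcnh2, and the 250 bases before their annotated start are shown here because Rarb encodes a DNA-binding receptor. Sequences are from RefSeq (GRCm38.p6) and read 5′ to 3′ on the strand of the gene. Capitals mark AGGTCA, the half-site that nuclear receptors of this class bind, and GGGCGG, the GC box, each on either strand (so also TGACCT and CCGCCC).
Kcng3, chr17:83631896-83632145, minus strand: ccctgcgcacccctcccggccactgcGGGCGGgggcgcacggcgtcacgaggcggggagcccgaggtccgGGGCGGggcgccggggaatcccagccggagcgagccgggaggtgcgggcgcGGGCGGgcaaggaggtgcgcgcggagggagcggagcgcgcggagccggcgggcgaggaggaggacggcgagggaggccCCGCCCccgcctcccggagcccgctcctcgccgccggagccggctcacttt
Kcnh1, chr1:192190527-192190776, plus strand: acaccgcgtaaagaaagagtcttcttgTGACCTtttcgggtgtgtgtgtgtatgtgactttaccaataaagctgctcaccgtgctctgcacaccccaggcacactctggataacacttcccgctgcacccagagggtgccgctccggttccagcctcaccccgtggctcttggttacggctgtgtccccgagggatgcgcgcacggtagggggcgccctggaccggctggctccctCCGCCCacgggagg
Kcnh2, chr5:24329592-24329841, minus strand: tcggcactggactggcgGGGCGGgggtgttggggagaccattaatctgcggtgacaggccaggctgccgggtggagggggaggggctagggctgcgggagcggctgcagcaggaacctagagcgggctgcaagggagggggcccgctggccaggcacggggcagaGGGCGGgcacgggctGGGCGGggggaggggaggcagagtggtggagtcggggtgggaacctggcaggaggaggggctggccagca
Kcns1, chr2:164171114-164171363, minus strand: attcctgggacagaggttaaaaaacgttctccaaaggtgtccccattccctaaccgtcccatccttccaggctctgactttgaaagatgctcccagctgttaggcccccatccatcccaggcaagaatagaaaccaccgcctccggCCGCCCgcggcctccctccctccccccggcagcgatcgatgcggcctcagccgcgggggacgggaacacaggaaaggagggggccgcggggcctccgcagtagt
The half-site is also part of both direct repeats searched. AGGTCA was found in the window of Kcnh1, at 1 place, and in none of the other 3. It was present in 3 of 50 windows of the potassium channel genes (38 of the 53 genes had at least 1 window) and in 14% of all 32851 windows. The direct repeats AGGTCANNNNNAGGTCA and AGGTCANNAGGTCA, searched on both strands, were in 0 of the 50 windows and in 0.00913% of all windows each. GGGCGG was in 25 of the 50 windows and in 32.7% of all windows, and in 8 of the 11 windows that belong to genes that rose or fell (9 of these genes had a window). A match describes these letters only, and its absence describes only these windows.

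Among voltage-gated pore subunits, 22 of the 53 genes, 18 were tested. Of these 5 fell and 1 rose, where 12% of all genes tested fell and 7.56% rose. The falls lay in the Kcnh, Kcna and Kcnc families. Kcnh1 encodes the ether-à-go-go channel, which opens slowly and whose rate of opening depends on the preceding voltage. Its level was 11.06 to 11.25 in WT (median 11.15), and 10.61, 10.59, 10.55, 10.54 and 10.79 in Rarb-null replicates 1 to 5. All Rarb-null arrays lay below all WT arrays, with replicate 5 above the other 4. The difference was -0.53 (SE 0.050), a 1.45-fold fall with an adjusted p of 9.43e-06 in the limma fit.

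Kcnh2 encodes the ERG channel, which recovers quickly from inactivation and carries current late in repolarisation. It read 9.24 to 9.43 in WT (median 9.32) and 8.86, 8.94, 9.09, 8.85 and 9.0 in the Rarb-null arrays. No Rarb-null array reached the WT range. The fall was 1.29-fold (limma, -0.37, SE 0.048, adjusted p = 0.000148). The other Kcnh genes tested did not pass. Kcnh3, Kcnh4 and Kcnh5 gave -0.06 (95% interval -0.12 to 0.01), 0.03 (-0.09 to 0.15) and 0.07 (-0.05 to 0.19). Kcnh7, a further ERG-type gene, gave 0.29 with a wide interval of 0.03 to 0.56 (adjusted p = 0.105). Its WT arrays alone ran from 7.58 to 8.36, so its Rarb-null values of 8.19 to 8.57 overlapped them.

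The Kcna genes encode the Shaker-type channels, which open near the spike threshold, and 6 of 8 were tested. Kcna1, a subunit of low-threshold axonal channels, read 11.02 to 11.17 in WT (median 11.10) and 10.92, 10.87, 10.90, 10.89 and 10.90 in Rarb-null arrays. The Rarb-null arrays lay close together and below every WT array. The fall was small and precise (limma, -0.20, SE 0.032, 1.15-fold, adjusted p = 0.000808). Kcna4 encodes a rapidly inactivating subunit found along axons. It read 10.13 to 10.40 in WT (median 10.25) and 9.98, 9.99, 10.02, 10.06 and 9.89 in Rarb-null arrays, again without overlap, and fell 1.21-fold (limma, -0.27, SE 0.049, adjusted p = 0.00218). With the cortical marker level in the model its difference was -0.20 and the call was lost (limma, adjusted p = 0.0783). That level was itself higher in Rarb-null arrays as a group, so the fit cannot fully separate it from genotype.

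Kcna3, known best from lymphocytes and also present in neurons and microglia, rose slightly. Its WT values were 9.29 to 9.42 (median 9.39) and its Rarb-null values 9.49, 9.42, 9.45, 9.52 and 9.57, so the ranges met at 9.42. The difference of 0.12 (SE 0.039) was 1.09-fold, with an adjusted p of 0.0391 in limma that was lost under 12 of 22 alternatives. Those were no filter, the replicate block, either marker covariate, omission of the 3 arrays of extreme cortical marker level, and omission of 1 array, which could be WT replicate 1, 4 or 5 or any Rarb-null replicate other than 2. Over these 12 the adjusted p ran from 0.0548 to 0.325. Kcna2, Kcna5 and Kcna6 did not pass, at -0.04 (95% interval -0.15 to 0.06), -0.06 (-0.17 to 0.04) and -0.12 (-0.24 to 0.01). A dimmer probe set of Kcna2 gave -0.18.

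These genes stand in clusters, in RefSeq's gene order. Kcna5, Kcna1 and Kcna6 follow each other on chromosome 6 with 0 protein-coding genes between them, and of these Kcna1 passed the test. Kcna3, Kcna2 and Kcna10 likewise follow each other on chromosome 3, with Kcna3 past the test and Kcna10 below the filter. Whether neighbours differed from each other was not tested.

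Kcnc1 encodes a channel of fast-spiking neurons that opens only at strong depolarisation. It read 8.99 to 9.18 in WT (median 9.15) and 9.04, 8.97, 8.92, 8.92 and 9.06 in Rarb-null arrays, with WT replicate 3 inside the Rarb-null range. The fall of 0.14 on the log2 scale (SE 0.041, 1.10-fold, limma adjusted p = 0.0366) was the smallest among the falls. Its call was lost under 12 of 22 alternatives, among them arrays centred on their median (-0.10, adjusted p = 0.0997), the oligodendrocyte covariate (-0.12, adjusted p = 0.170) and omission of any of 7 arrays (WT 1, 4, 5 or 6, or Rarb-null 2, 3 or 4, with adjusted p from 0.0652 to 0.0944). The other Kcnc genes had positive differences that did not pass: Kcnc4 gave 0.24 (95% interval 0.04 to 0.44, adjusted p = 0.0788) and Kcnc2 gave 0.26 (-0.01 to 0.53, adjusted p = 0.155). In both, Rarb-null replicate 5 was the highest array, at 9.02 for Kcnc4 and 8.51 for Kcnc2.

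Kcnb2, the delayed rectifier subunit that silent subunits can join, gave -0.05 (95% interval -0.16 to 0.07). Kcnq3 and Kcnq5, whose channels carry the muscarine-sensitive M-current, gave 0.08 (-0.02 to 0.17) and 0.05 (-0.03 to 0.14). For Kcnq5 the WT arrays ran from 11.53 to 11.70 and the Rarb-null arrays from 11.61 to 11.70. The intervals of these 3 genes hold 0, and their widths limit any change to less than the falls of Kcnh1 and Kcng3.

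Electrically silent subunits moved in both directions. Of 10 such genes 8 were tested, with 2 falls and 1 rise, where 12% of all genes tested fell and 7.56% rose. So few genes do not set the class apart. Kcng3 read 8.92 to 9.26 in WT (median 9.07) and 8.58, 8.49, 8.47, 8.50 and 8.39 in Rarb-null arrays. The groups were far apart relative to their spread, and the fall of 0.59 (SE 0.061, 1.5-fold, limma adjusted p = 2.29e-05) was the largest among the potassium channel genes tested. Kcng1 read 9.27 to 9.56 in WT (median 9.39) and 9.02, 9.07, 9.14, 9.09 and 9.40 in Rarb-null arrays. Replicate 5 of the Rarb-null arrays lay inside the WT range, and the difference was -0.26 (SE 0.068, limma adjusted p = 0.0179). Without that array it was -0.33 (adjusted p = 0.00157). With the cortical marker level in the model it was -0.45 (adjusted p = 0.000951), and with the oligodendrocyte level -0.25 (adjusted p = 0.0973).

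Kcns1 went the other way. Its WT arrays spread widely, from 7.39 to 8.15 (median 7.84), while the Rarb-null arrays were close together at 8.44, 8.31, 8.51, 8.45 and 8.45. Every Rarb-null array lay above every WT array. The rise was 1.54-fold (limma, 0.62, SE 0.100, adjusted p = 0.000893), and it remained between 0.54 and 0.70 under the 21 alternatives that tested the gene, all past the threshold. The rest of the silent group did not pass: Kcnv1 at -0.12 (95% interval -0.23 to -0.02, adjusted p = 0.0847), Kcns3 at 0.09, Kcnf1 at -0.04, Kcng2 at -0.03 and Kcns2 at 0.01. Over these 5 genes the intervals ran from -0.24 to 0.21.

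**Figure D2:**
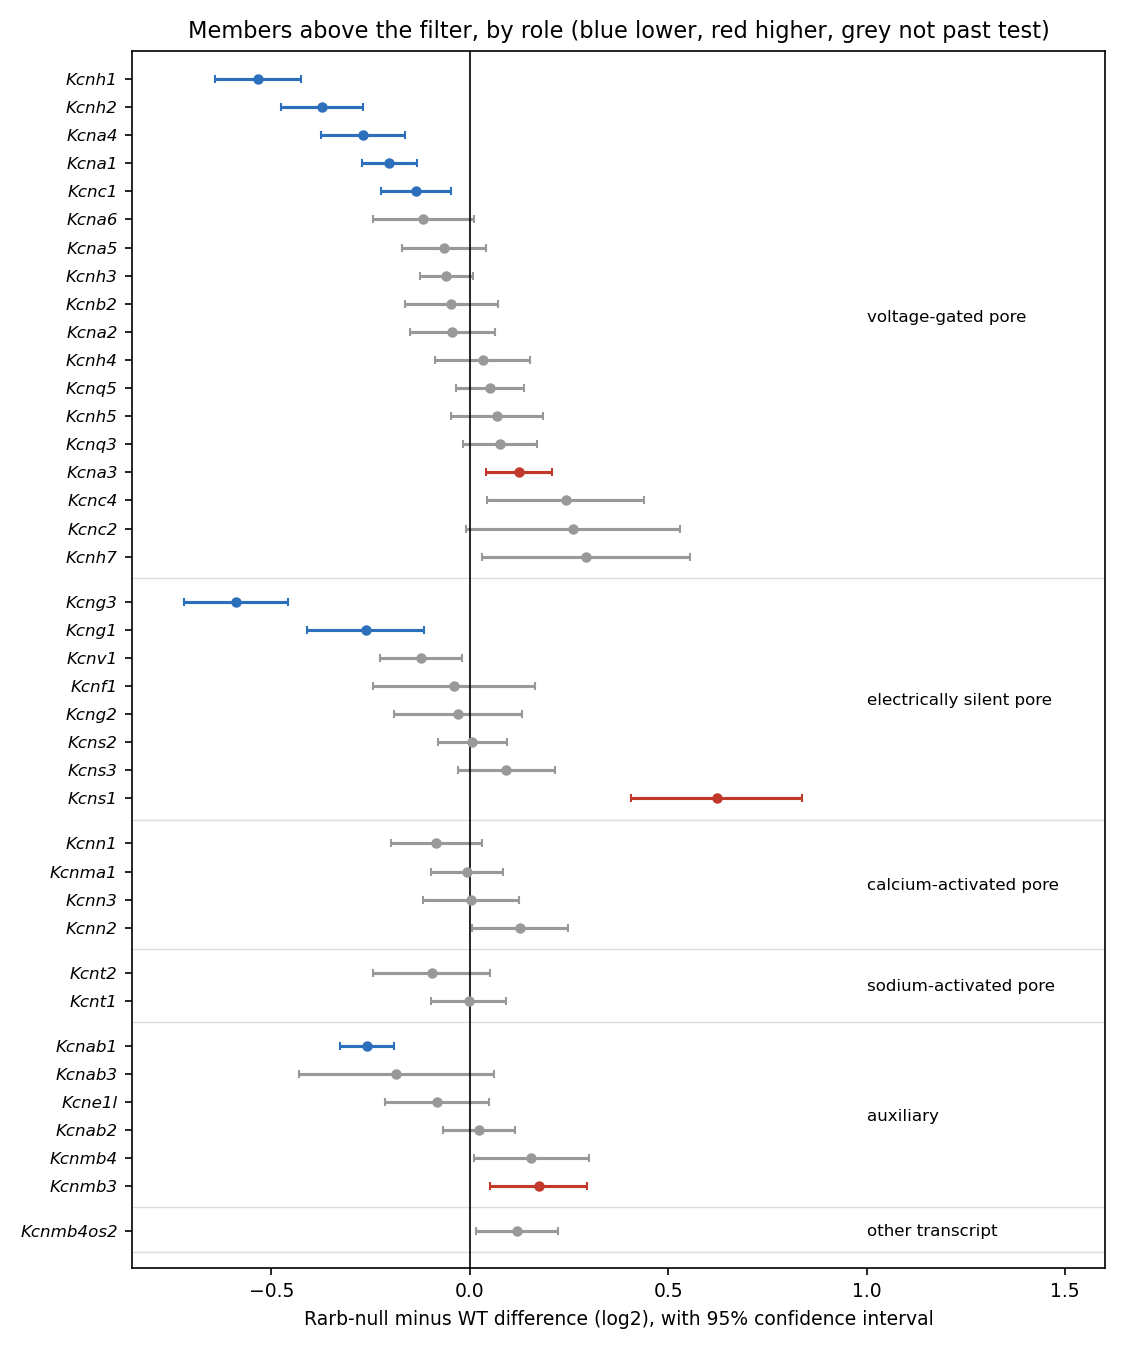
Rarb-null minus WT difference (log2) of the 39 potassium channel genes tested, grouped by role, with 95% confidence intervals of the limma fit. Blue marks the 8 genes that fell, red the 3 that rose and grey the 28 that did not pass an adjusted p of 0.05. All 6 calcium- and sodium-activated pore genes are grey, where 19.6% of all genes tested passed.

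No calcium- or sodium-activated pore gene passed in limma's test (0 of 6 tested, with 1 of them, Kcnn2, at an unadjusted p under 0.05). Over all genes tested 19.6% passed, and 6 genes are too few to set the class apart. Kcnma1, the pore of the large-conductance BK channel, read 10.49 to 10.73 in WT (median 10.64) and 10.63, 10.62, 10.64, 10.57 and 10.69 in Rarb-null arrays. The Rarb-null values all lay inside the WT range, and the difference was -0.01 (95% interval -0.10 to 0.08). Kcnma1 is the only gene of the 53 on chromosome 14, the chromosome of Rarb, with 48 protein-coding genes between them in RefSeq's order. The SK channel genes Kcnn1, Kcnn2 and Kcnn3, whose small-conductance pores open with calcium after a spike, gave -0.08 (-0.20 to 0.03), 0.13 (0.01 to 0.25, adjusted p = 0.126) and 0.00 (-0.12 to 0.13). The sodium-activated pores Kcnt1 and Kcnt2 gave 0.00 (-0.10 to 0.09) and -0.10 (-0.24 to 0.05).

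Auxiliary proteins form no pore, and 6 of 12 such genes were tested. Kcnab1, whose product binds Kcna subunits inside the cell and speeds their inactivation, fell. It read 11.91 to 12.02 in WT (median 11.95) and 11.71, 11.67, 11.75, 11.75 and 11.65 in Rarb-null arrays, with a gap between the groups. The difference was -0.26 (SE 0.032, 1.20-fold, limma adjusted p = 0.000102). Kcnab2, of the same family, gave 0.02 (95% interval -0.07 to 0.12), and Kcnab3 -0.18 (-0.43 to 0.06), with WT arrays spread from 7.61 to 8.47. Kcna1, Kcna4 and Kcnab1, which can share a channel complex, had falls of 0.20, 0.27 and 0.26. Of the other Kcna and Kcnab genes tested, Kcna3 rose, and Kcna2, Kcna5, Kcna6, Kcnab2 and Kcnab3 did not pass. A joint change of a complex was not tested.

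The Kcnmb proteins accompany the BK pore. Kcnmb3 rose with the adjusted p nearest to the threshold (limma, 0.17, SE 0.057, adjusted p = 0.0487). Its WT arrays ran from 7.06 to 7.23 (median 7.15) and its Rarb-null arrays read 7.21, 7.53, 7.35, 7.19 and 7.31, so the ranges overlapped. The call was lost under 15 of 21 alternatives (adjusted p up to 0.200), among them the omission of any of WT replicates 1, 3, 4, 5 and 6 or Rarb-null replicates 2, 3 and 5. Just past the threshold, Kcnc4 was the nearest gene that did not pass. Kcnmb4, the neuronal BK partner, gave 0.16 (95% interval 0.01 to 0.30, adjusted p = 0.115). Kcne1l, of the family of single-span partners of Kcnq and other pores, gave -0.08 (-0.21 to 0.05).

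The symbol rule also took in a pair of non-coding transcripts at the Kcnmb4 gene. Kcnmb4os2 gave 0.12 (95% interval 0.02 to 0.22, limma adjusted p = 0.0948). Kcnmb4os1, below the filter, read 6.37 ± 0.08 in WT and 6.55 ± 0.09 in Rarb-null arrays. Among the 14 genes below the filter it alone was past the threshold when no filter was applied (limma, 0.18, adjusted p = 0.0287). These transcripts overlap Kcnmb4 and were read by probe sets of their own. No source used here says which strand those read, and whether their signal is separate from that of Kcnmb4 was not checked.

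The 14 genes below the filter were Kcna7, Kcna10, Kcnh8, Kcnq1, Kcng4, Kcnv2, Kcnn4, Kcne1, Kcne2, Kcne3, Kcne4, Kcnmb1, Kcnmb2 and Kcnmb4os1. Their means ran from 5.48 for Kcne3 to 6.83 for Kcna10. The dimmest gene tested was Kcnmb3, at 7.22. None of the 39 tested genes had a group mean below the filter, and none of the 14 had a group mean above it. Differences of the 14 ran from -0.05 to 0.20 and 13 were positive, with a median of 0.10. Among all 7975 genes below the filter 80.1% were positive, with a median of 0.064, so dim probe sets read slightly higher in the Rarb-null arrays as a whole.

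The potassium channel genes varied somewhat more between arrays of a genotype than other genes. Their median residual SD was 0.096, against 0.074 over all genes tested. Kcnh3 (0.038), Kcnab1 (0.042) and Kcna1 (0.043) varied least, and Kcnc2 (0.246), Kcnh7 (0.239), Kcnab3 (0.222) and Kcns1 (0.194) most. The median half-width of the 95% intervals was accordingly 0.12 over the 39 genes, the size of difference below which these arrays resolve little.

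Some cell type markers differed by genotype, where 12% of all genes tested were lower and 7.56% higher. Only the projection neuron and cholinergic lists had separate group ranges. Cortical neuron markers (10 of 11 on the array, Neurod6 below the filter) averaged 7.90 to 8.64 in WT arrays against 8.56 to 9.20 without Rarb, with 4 of 9 tested higher and 0 lower. The 13 projection neuron markers on the array, none below the filter, averaged 11.88 to 11.95 in WT arrays against 11.61 to 11.73 without Rarb, with 10 lower and 0 higher. Markers of other interneurons averaged 8.74 to 9.11 and 8.97 to 9.30 (8 on the array; 2 of 6 tested higher, 0 lower), with Pvalb and Vip below the filter. Cholinergic markers averaged 8.49 to 8.69 and 8.31 to 8.44, with 3 of 5 lower. Of oligodendrocyte markers 3 of 9 were lower (9.46 to 9.61 against 9.35 to 9.54), and of astrocyte markers 2 were lower and 1 higher of 7 (10.08 to 10.19 against 10.04 to 10.14). In limma's test 0 of 6 microglial and 0 of 7 endothelial and mural markers passed (3 and 0 of them at an unadjusted p under 0.05), with ranges of 9.03 to 9.20 against 8.97 to 9.18 and of 8.46 to 8.68 against 8.44 to 8.63.

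**Figure D3:**
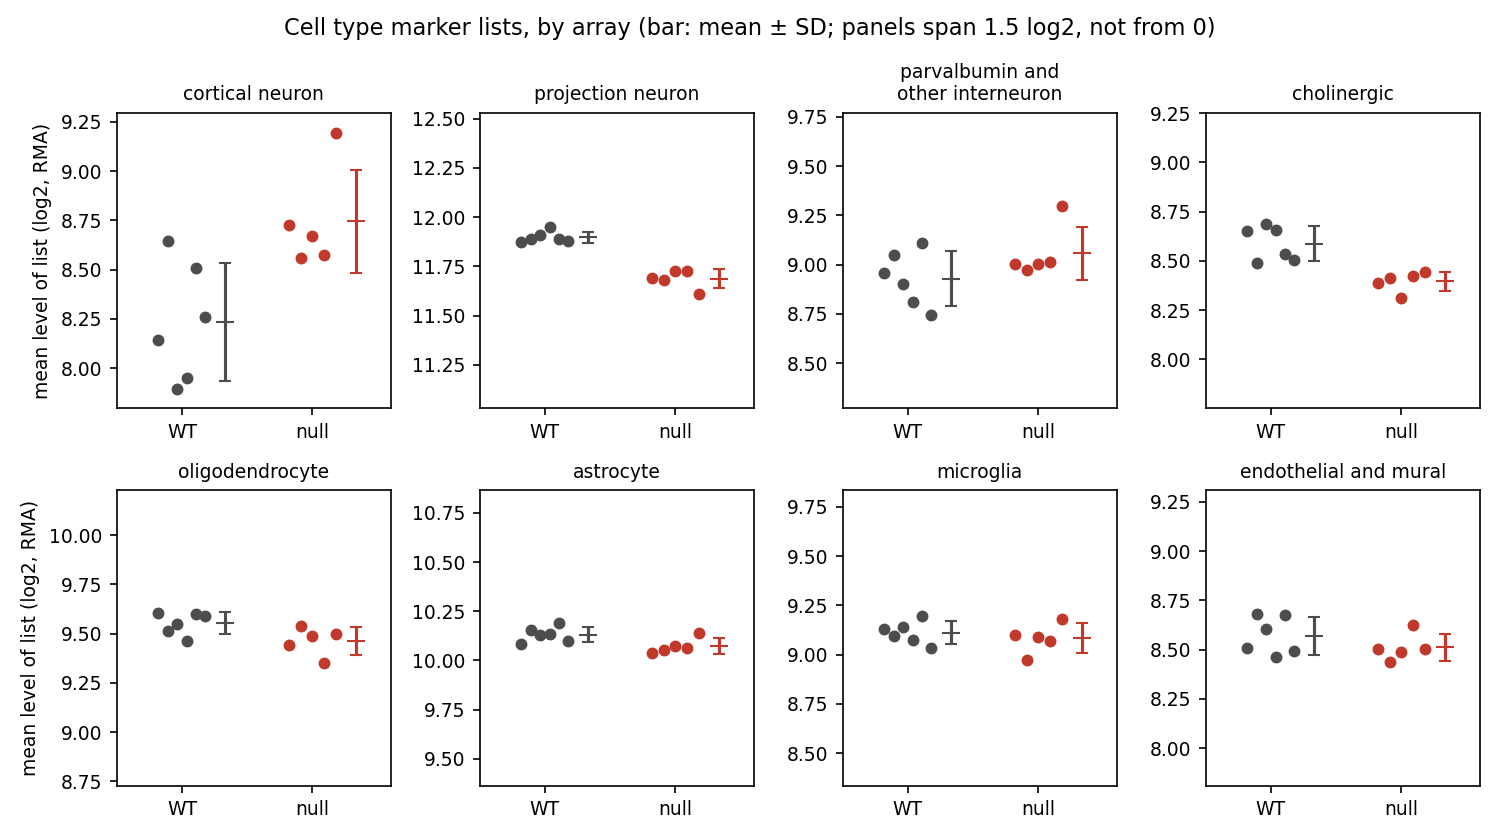
Mean level (log2, RMA) of 8 cell type marker lists on each array, for 6 WT (grey) and 5 Rarb-null (red) mice, with mean ± SD; panels span 1.5 log2 units and do not start at 0. Projection neuron and cholinergic lists are lower in every Rarb-null array, and the cortical list is highest in Rarb-null replicate 5, at 9.20.

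The array with the highest cortical marker level, Rarb-null replicate 5, was the highest Rarb-null array for 16 of the 39 genes tested and the lowest for 8. It was the highest for Kcnh1, Kcng1, Kcnc1 and Kcna3 among the genes that passed, and the lowest for Kcng3, Kcna4 and Kcnab1. The other Rarb-null arrays were the highest for 3 to 11 genes and the lowest for 0 to 12. The same counts over all genes tested are not given here, so these counts do not set the potassium channel genes apart. Among WT arrays, replicate 2 had the highest cortical level (8.64) and replicate 3 the lowest (7.90). Whether single genes followed that level among WT arrays was not tested. The cortical level went largely with genotype, at 7.90 to 8.64 in WT and 8.56 to 9.20 in Rarb-null arrays. A fit with that level therefore cannot fully separate it from genotype, and calls lost or gained there do not settle its part. With the cortical level as a covariate 8 potassium channel genes were lower and 1 higher, where 6.26% and 2.92% of all genes were. Kcns1 (0.66), Kcng3 (-0.47), Kcnh1 (-0.61), Kcnh2 (-0.40), Kcna1 (-0.22), Kcnab1 (-0.21) and Kcng1 (-0.45) kept their calls. Kcna2 (-0.18, adjusted p = 0.0238) and Kcna6 (-0.28, adjusted p = 0.00974) joined the falls in that limma fit, while Kcna4, Kcnc1, Kcna3 and Kcnmb3 left. Kcnc2, Kcnc4, Kcnh7 and Kcnmb4 moved from positive to slightly negative differences, none past the threshold. The level of projection neuron markers was not used as a covariate, and its part in the falls was not tested. With the oligodendrocyte level as a covariate 7 potassium channel genes were lower and 2 higher (7.28% and 3.52% of all genes). Kcna5 (-0.17, adjusted p = 0.0271) and Kcnc2 (0.47, adjusted p = 0.0441) joined in that limma fit, while Kcng1, Kcnc1, Kcna3 and Kcnmb3 left. Without the 3 arrays at the extremes of cortical level 9 were lower and 1 higher (7.31% and 3.95%). With the filter raised to the 60th percentile 8 were lower and 1 higher (15.2% and 6.39%), and at an adjusted p under 0.01 in limma 6 were lower and 1 higher (5.32% and 2.78%).

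**Figure D4:**
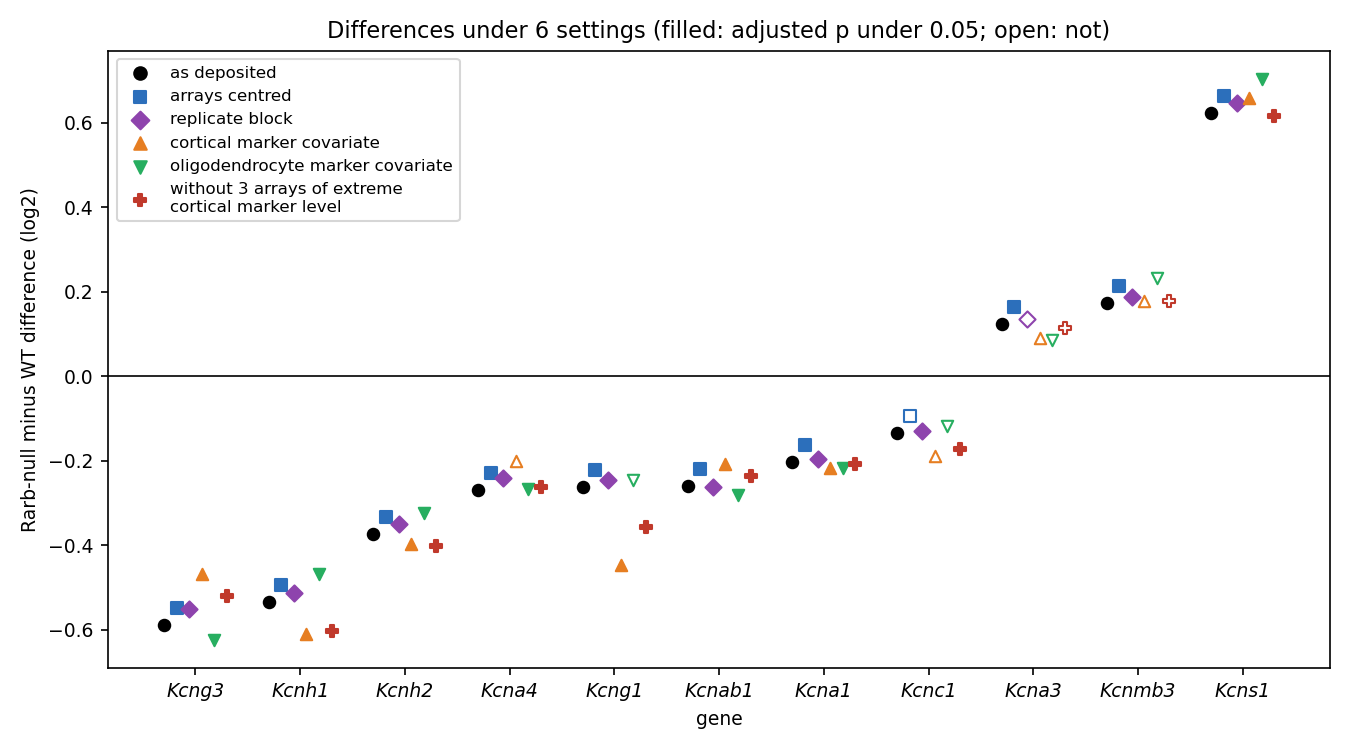
Rarb-null minus WT difference (log2) of the 11 genes under 6 settings, filled where the adjusted p was under 0.05 and open where it was not. Kcng3, Kcnh1, Kcnh2, Kcnab1, Kcna1 and Kcns1 are filled throughout; Kcna3 and Kcnmb3 are open under both marker covariates and when 3 arrays with extreme cortical levels were omitted.

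Proteins that hold these channels in place or regulate them were taken from a list of 34 genes, of which 32 were on the array and 28 were tested. Of these 7 fell and 3 rose, or 35.7%, where 19.6% of all genes passed (12% lower and 7.56% higher). The list was drawn up with earlier results of these data known, so its share does not set the partner genes apart. Their median difference was -0.026, against -0.017 over all genes tested. Cntnap1, an axonal adhesion protein that marks off the membrane where Kcna channels gather beside myelinated nodes, fell most (limma, -0.80, SE 0.056, adjusted p = 5.25e-07). It read 10.74 to 10.88 in WT and 9.86 to 10.17 in Rarb-null arrays. Dlg1, a scaffold that binds Kcna tails, fell by 0.25 (SE 0.035), and Plcb1, a phospholipase that lowers the lipid on which Kcnq channels depend, by 0.20 (SE 0.035). Bace1, a protease that also binds Kcnq channels, rose by 0.13 (SE 0.036). So did Cntnap2, the partner that clusters Kcna channels, by 0.19 (SE 0.054), and Chrm1, the muscarinic receptor that closes Kcnq channels, by 0.14 (SE 0.041). For each of these 6 partner genes the WT and Rarb-null ranges were separate, as they were for 7 of the 28 in all (25%) and for 11.2% of all genes tested. Nedd4l, Lrrc55, Ank3 and Csnk2a1 were the other falls, at -0.17, -0.26, -0.15 and -0.11. Lrrc26, Lrrc38, Lrrc52 and Kcnrg were below the filter, and 18 partner genes did not pass. With the oligodendrocyte marker level in the model 4 partner genes fell and 0 rose (limma, 2 of them higher at an unadjusted p under 0.05), and with the cortical level 4 fell and 2 rose.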

How the data were processed

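RNA of nucleus accumbens (100 ng per mouse) was labelled with biotin and hybridised to 1 array per mouse. The authors normalised the arrays with RMA before they deposited the values, according to the submitters' processing notes. The deposited values are taken as log2 expression, a scale inferred from their range. RMA subtracts background, normalises quantiles and summarises probes, which compresses folds of dim probe sets. The sources used here name no software version or scan date, and no batch was examined.

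Arrays were grouped by their titles into 6 WT and 5 Rarb-null. Of 35556 probe sets, 21789 had 1 symbol in a platform annotation table, 1621 had several and 12146 were not listed; 21698 were looked up in RefSeq's gene table (GRCm38.p6) by Entrez identifier. Of the 53 potassium channel genes, 3 had several probe sets. Genotypes were compared with limma 3.58.1 under R 4.3.3, fitting genotype alone with eBayes, over 11963 genes with Benjamini-Hochberg adjustment. The p-values weigh each genotype difference against the spread between arrays within a genotype, moderated over all genes tested. As each mouse gave a single array, that spread holds mouse and technical variation together. The procedure was tested on simulated data of independent genes, with 11763 of 11963 unchanged and no difference of array scale or cell mix. That test does not speak to false calls in these data.

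Named are all potassium channel genes, by role, with array values for those past the threshold, and the 3 partner genes of smallest p in each direction; Nedd4l, Lrrc55, Ank3 and Csnk2a1 were named after their values were seen, as were the 4 genes whose promoters are shown and the motifs. The genes, lists and alternatives were chosen with earlier results of these data known. Alternatives were other filters, array scales, variance models, array weights, probe set means, the replicate number as a block, marker covariates, a stricter threshold, and omission of arrays. The 3 arrays of extreme cortical marker level are WT replicates 3 and 4 and Rarb-null replicate 5. Plots used matplotlib 3.10.9 (Python 3.11.15).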

Additional observations from a re-analysis of the deposited data

Results flagged for a closer look

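In 4 of 78 groups of arrays (39 genes in each genotype) 1 array stood apart from the others by Dixon's criterion, where chance gives about 1 in 20. Kcnh1 read 10.79 in Rarb-null replicate 5 and 10.54 to 10.61 in the other Rarb-null arrays. Kcne1l read 7.19 in Rarb-null replicate 1 and 7.41 to 7.45 in the others. Among WT arrays, replicate 6 had a Kcnf1 level of 8.44, against 8.93 to 9.09 elsewhere. Replicate 3 had a Kcnh3 level of 10.20, against 10.08 to 10.09 elsewhere.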

How the results depend on the processing

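Of the 11 genes past the threshold, 6 (Kcng3, Kcnh1, Kcnh2, Kcnab1, Kcna1 and Kcns1) kept their call in every alternative that tested them, and none of the 11 changed sign. Kcns1 and Kcnmb3 were not tested under the stricter filter. The genes that fell numbered 7 to 10 when single arrays were left out, and those that rose 1 to 5: 1 on omission of WT 1, WT 4, Rarb-null 3 or Rarb-null 5, and 5 on omission of WT 2. The rises numbered 1 with the stricter filter, the cortical covariate, the 3 arrays of extreme cortical marker level left out, or an adjusted p of 0.01. They numbered 6 with arrays centred, where calls over all genes moved from 38.7% to 64.1% higher and Kcnc4, Kcnmb4 and Kcnmb4os2 joined them. Partner genes that rose numbered 1 to 3 with single arrays left out, 1 without the 3 arrays, and 0 with the oligodendrocyte covariate or an adjusted p of 0.01 in limma (2 and 4 of them higher at an unadjusted p under 0.05). They numbered 1 on omission of Rarb-null 3, 4 or 5. Partner genes that fell numbered 5 to 8 with single arrays left out, 4 with arrays centred or either covariate, and 3 at an adjusted p of 0.01. The cause of these moves was not tested.

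Deviations of arrays with the same replicate number correlated at 0.257, 0.056, 0.255, 0.188 and 0.425 for numbers 1 to 5. All were positive, but that of number 2 was under 0.1, the least taken here to show pairing in every pair, and 5 of the 10 arrays concerned correlated best with their own number. Each of these WT arrays was compared with the 5 Rarb-null arrays, and each Rarb-null array with the 6 WT arrays. The labels do not say what a number marks, and whether the numbers pair the arrays was not settled. With the replicate block 5 potassium channel genes rose and 10 fell in limma: Kcnc4 (0.23, adjusted p = 0.0150), Kcnmb4 (0.15, adjusted p = 0.0440), Kcnn2 (0.15, adjusted p = 0.0379), Kcnab3 (-0.27, adjusted p = 0.0123) and Kcnf1 (-0.13, adjusted p = 0.0263) joined and Kcna3 (adjusted p = 0.0562) left. In that fit 2872 of all genes passed against 2341 without it. Rarb stayed between -1.89 and -1.82 with single arrays left out.

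Sign changes were confined, in the alternatives run, to 12 genes that did not pass. With arrays centred the values were 0.00050 for Kcnf1, 0.0098 for Kcng2, 0.033 for Kcnma1 and 0.037 for Kcnt1. With quantile normalisation repeated they were 0.0038 for Kcnma1 and 0.0092 for Kcnt1, and with the replicate block 0.013 for Kcnma1. With the cortical covariate Kcnab2 gave -0.015, Kcnc2 -0.0088, Kcnc4 -0.045, Kcnh7 -0.105, Kcnmb4 -0.035 and Kcnt1 0.042. With the oligodendrocyte covariate Kcnab2 gave -0.027, Kcng2 0.020, Kcnh4 -0.028 and Kcnma1 0.0029. Without the 3 arrays Kcnf1 gave 0.0026 and Kcnt1 0.049. Leaving out single arrays gave -0.099 to 0.028 for Kcng2, -0.035 to 0.013 for Kcnma1, -0.035 to 0.041 for Kcnn3, -0.024 to 0.027 for Kcns2 and -0.034 to 0.017 for Kcnt1. The number of arrays limits precision, and signal over background was not measured here.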
